A study of Homo sapiens with 6 samples.

Results

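miR-132 and miR-212 are a pair of miRNAs encoded side by side on chromosome 17, and each of their hairpins can give 2 mature arms. The arms hsa-miR-132-3p, hsa-miR-132-5p, hsa-miR-212-3p and hsa-miR-212-5p were taken by name from the probe list of the array, and these 4 probes were among 2565 miRNA probes. They were measured in Panc-1 cells, a human cell line established from pancreatic ductal adenocarcinoma (PDAC), on 6 one-colour miRNA arrays. The 3 control arrays carried RNA of cells given 0 ng/mL of TGF-β, and the 3 TGF-β arrays RNA of cells given 10 ng/mL of TGF-β, a cytokine used to induce the epithelial–mesenchymal transition (EMT), both for 72 h. A single cell line was used, and the labels do not say whether the replicates were separate cultures, so p-values measure the spread between these samples, which may be technical. By the array names the groups lay on separate slides, 1 for each, and slide cannot be told apart from treatment. In bulk RNA, fewer cells with a miRNA and less of it per cell also cannot be told apart.

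miR-132 and miR-212 are processed from a shared primary transcript, whose promoter is bound by CREB, the transcription factor activated by cAMP and by growth factor signalling. They are best known from neurons, where they rise with activity and act on dendrite growth, and they are also expressed in pancreatic islets. The 3p arms are the usual guide strands, and their known targets include the GTPase-activating proteins ARHGAP32 and RASA1 and the retinoblastoma protein gene RB1.

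The mature sequences, from RefSeq on GRCh38.p14, are shown because the arms are told apart by a few bases, and the seed, bases 2 to 8 from the 5′ end through which a miRNA recognises its targets, is in capitals.
hsa-miR-132-3p: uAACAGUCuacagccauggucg
hsa-miR-212-3p: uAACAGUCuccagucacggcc
hsa-miR-132-5p: aCCGUGGCuuucgauuguuacu
hsa-miR-212-5p: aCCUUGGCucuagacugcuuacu
The 3p arms had the same seed. Over the 21 bases that both 3p arms have, counted from 1 at the 5′ end and aligned without gaps, 17 were the same, and miR-212-3p differed from miR-132-3p by A10C, C14U, U17C and U20C. The seeds of the 5p arms differed at 1 base, G4U from miR-132-5p to miR-212-5p. Of the 2370 mature miRNA names in the RefSeq table, none other than these carried any of the 3 seeds, so that miR-212-3p was the only other miRNA with the seed of miR-132-3p. The files give neither the probe sequences nor their specificity, and how much of each RNA is taken up by the probe of its relative was not tested.

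The hairpins are shown with the mature arms in capitals, 5p arm first. MIR132 lies at chr17:2049908-2050008 and MIR212 at chr17:2050271-2050380, both on the minus strand, with 262 bp between them and MIR212 upstream.
MIR132 hairpin: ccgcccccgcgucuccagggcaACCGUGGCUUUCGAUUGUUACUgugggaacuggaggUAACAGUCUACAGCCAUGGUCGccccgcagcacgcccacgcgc
MIR212 hairpin: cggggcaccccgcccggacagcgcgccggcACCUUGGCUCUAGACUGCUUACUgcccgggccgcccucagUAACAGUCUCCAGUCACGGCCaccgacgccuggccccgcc
In the annotation MIR132 overlaps the lncRNA gene LOC124903896 by 42 bp and MIR212 lies outside it. Of the protein-coding genes looked up by name, OVCA2 lies 6482 bp from MIR132 on 1 side. The tumour suppressor gene HIC1 lies 4722 bp from MIR212 on the other. Whether another gene lies nearer was not tested. The array files carry no coordinates.

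The signal of the arms stood close to the background of the arrays. The 320 blank spots of each array, without the 5% at each end, averaged 18.2 to 21.3 intensity units with SDs of 0.528 to 0.768, and a miRNA was counted as detected above the blank mean plus 2 SD, at 19.5 to 22.8 units. On single arrays, 1531 to 1787 miRNAs were detected. After subtraction of the blank mean and quantile normalization, arrays correlated at 0.984 to 0.992 over 1282 miRNAs, which are not independent replicates. Precision is limited by the number of arrays, and with 3 arrays against 3 an exact permutation test (2-sided) gives no p below 0.1.

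miR-132-3p was detected on all 6 arrays. Its spot gave 24.5, 26.6 and 30.4 intensity units without TGF-β and 26.1, 24.9 and 29.1 with it. This was 9.57 to 12.1 blank SDs above the blank mean. miR-132-5p, its partner arm from the same hairpin, was likewise detected on each array, at 26.6, 29.3 and 34.1 units without TGF-β and 31.5, 29.5 and 30.2 with it, or 12.8 to 20.3 SDs. Against the blank spots, both arms of miR-132 thus lay above the detection limit with and without TGF-β. The local background around a spot was at times as high as the spot itself. It was above the miR-132-3p spot on TGF-β replicate 1 (27.0 units) and above the miR-132-5p spot on control replicate 1 (26.8 units), and below the spots of these arms on the other arrays.

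miR-212-3p was detected on all arrays as well. Its signals were 28.7, 28.9 and 36.5 units without TGF-β and 26.6, 29.3 and 30.5 with it, or 10.9 to 19.9 SDs above the blank mean. miR-212-5p, the other arm of that hairpin, gave 19.1, 18.7 and 24.0 units without TGF-β and 20.7, 20.5 and 22.4 with it. It passed the detection limit on 1 of the control arrays and 2 of the TGF-β arrays, and its strongest spot was 3.54 SDs above the blank mean. Brightness differs between probes for the same amount of RNA, so the 4 arms are not ranked against each other.

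**Figure D1:**
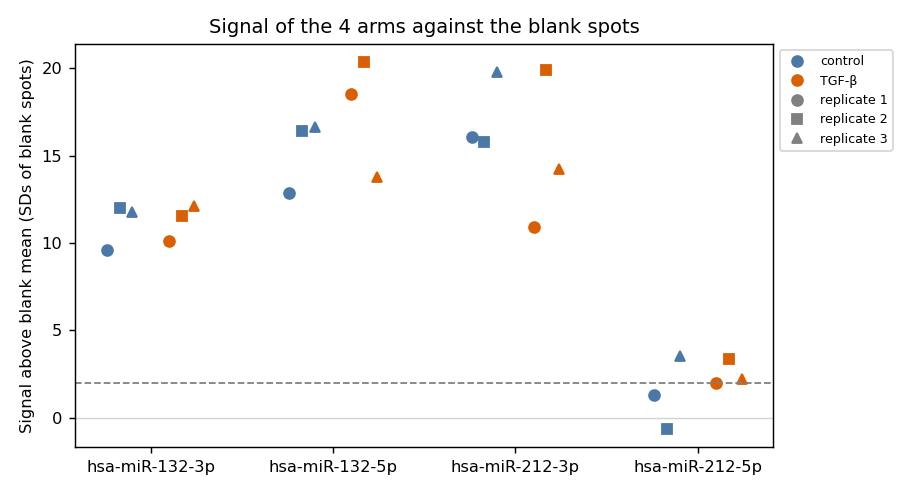
Signal of each arm above the mean of the blank spots, in SDs of the blank spots of the same array (vertical axis), for control (blue) and TGF-β (orange) arrays, with a marker shape for each replicate number and a dashed line at the detection limit of 2 SD. The arms miR-132-3p, miR-132-5p and miR-212-3p lie between 9.57 and 20.3 SDs on every array, and miR-212-5p lies at -0.63 to 3.54 SDs, around the limit.

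None of the tested arms of miR-132 and miR-212 passed the test between TGF-β-treated and control cells. For these comparisons, normalized intensities on the log2 scale were compared with limma, and p-values were adjusted over 1457 miRNAs, those above the detection limit throughout the control group, the TGF-β group or both, which include 3 of the 4 arms. At an adjusted p under 0.05, limma called 0 of the 3 arms, compared with 3.98% of all tested miRNAs. At an unadjusted p under 0.05 it was again 0 of 3, compared with 13.7% of all, and the methods' t-test gave 0 of 3 before adjustment, compared with 13.4% of all, and 0 of 3 after it, compared with 1.17%.

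The normalized level of miR-132-3p was 2.82, 3.00 and 2.90 (log2) in the control group, compared with 2.86, 2.55 and 3.04 in the TGF-β group. The groups overlapped, with the lowest and the highest value both on TGF-β arrays. The group means were 2.91 ± 0.09 (SD, n = 3) and 2.82 ± 0.25 (SD, n = 3). The log2 fold change was -0.09 with a standard error of 0.17, and limma gave an adjusted p of 0.894. Its 95% interval ran from -0.46 to 0.28, or 0.728-fold to 1.21-fold, so that a change of this size in either direction could not be told from none.

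The normalized level of miR-132-5p was 3.19, 3.46 and 3.46 (log2) in the control group, compared with 3.72, 3.35 and 3.23 in the TGF-β group. TGF-β replicate 1 was the highest of all, and the remaining TGF-β arrays lay within the range of the controls. The log2 fold change was 0.06 with a standard error of 0.16 (limma, adjusted p = 0.925), with a 95% interval from -0.29 to 0.42. Without TGF-β replicate 1 it was -0.08, and without control replicate 1 it was -0.02, so its sign rested on single arrays, as did that of miR-132-3p, which was 0.04 without TGF-β replicate 2.

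miR-212-3p, which carries the seed of miR-132-3p, had the lowest ratio of the tested arms. Its normalized level was 3.47, 3.39 and 3.71 (log2) in the control group, compared with 2.97, 3.34 and 3.27 in the TGF-β group. Every TGF-β array was below every control array, with 3.39 and 3.34 as the closest values, and 1 of the 3 tested arms thus had separate groups, compared with 18.9% of all tested miRNAs. The means were 3.52 ± 0.16 (SD, n = 3) and 3.19 ± 0.19 (SD, n = 3), a log2 fold change of -0.33 (0.796-fold, standard error 0.15). The change did not pass the test, with an unadjusted p of 0.0552 and an adjusted p of 0.375 from limma and p = 0.1 in the exact permutation test (2-sided, the smallest possible). The 95% interval ran from -0.67 to 0.01, and 213 of the 1457 tested miRNAs had a smaller p.

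The separation of the miR-212-3p groups depended on the processing. Among the 5 alternatives that can change the order of its values, it was present with 2, median and 75th percentile scaling. The groups overlapped without normalization between arrays (log2 fold change -0.37), in the deposited values (-0.23) and with the local background of each spot (-0.03). The local background beside the miR-212-3p spot was 23.8, 23.4 and 20.5 units in the control group, compared with 18.6, 17.3 and 21.3 in the TGF-β group, and its part in the difference between these values was not tested. The other 4 backgrounds and floors keep the order of the miRNAs on each array and so could not change the separation. The adjusted p ranged from 0.256 to 0.987 over the alternatives. The spread of the blank spots alone corresponds to an SD of 0.08 (log2) at the signal of miR-212-3p in control cells and 0.10 in TGF-β-treated cells, compared with the measured SDs of 0.16 and 0.19.

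miR-212-5p was not part of the test, because it was not detected on every array of either group. Its normalized level was at the floor, 0 on the log2 scale, on control replicates 1 and 2 and was 1.24 on control replicate 3, compared with 0.49, 0.68 and 0.58 on the TGF-β arrays. The groups overlapped, and neither a fold change nor a test is given, since the values at the floor have no order.

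**Figure D2:**
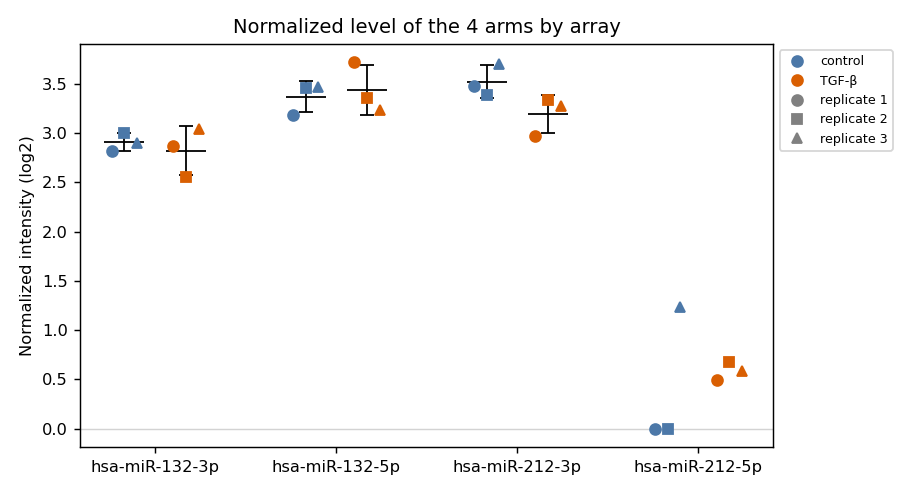
Normalized intensity (log2, vertical axis) of the 4 arms on each control (blue) and TGF-β (orange) array, with marker shapes for replicate numbers. Horizontal bars with whiskers are the group mean and SD (n = 3), left out for miR-212-5p because 2 of its values are at the floor of 0. The groups overlap for both arms of miR-132 and lie apart for miR-212-3p, at 3.39 to 3.71 in control and 2.97 to 3.34 in TGF-β-treated cells.

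In the deposited processed values, which are scaled on each array's own detected miRNAs, miR-132-3p was 26, 32 and 31 without TGF-β and 28, 29 and 32 with it, with equal means (ratio 1). miR-132-5p was 35, 44 and 43 without TGF-β and 51, 51 and 37 with it, a ratio of 1.14 (exact permutation test, 2-sided p = 0.3). miR-212-3p was 43, 42 and 51 without TGF-β and 30, 50 and 38 with it, so that TGF-β replicate 2 lay inside the control range.

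The mean of miR-212-3p was 45.3 ± 4.93 (SD, n = 3) without TGF-β and 39.3 ± 10.1 (SD, n = 3) with TGF-β (exact permutation test, 2-sided p = 0.4). The ratio of 0.868 lay just inside the threshold of 0.87-fold that was applied to reduced miRNAs on these arrays. It rose above that threshold without control replicate 3 (0.925), TGF-β replicate 1 (0.971) or TGF-β replicate 3 (0.882), and was 0.750 without TGF-β replicate 2. miR-212-5p had 1 deposited value in control cells, 9, and 2 in TGF-β-treated cells, 8 and 6, and no ratio is given, since the arrays without a value are those that did not detect it. In all, 1 of the 3 arms with a deposited value on every array had a ratio below 0.87, compared with 6.24% of the 1282 such miRNAs. The median log2 fold change of all tested miRNAs was 0.11 in the deposited values and -0.01 in the normalized ones, and relative to these medians the log2 fold change of miR-212-3p was -0.34 and -0.32, respectively.

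Since the arms come from a shared transcript, the changes of pairs of arms were compared through the difference of their log2 values within each array, which uses no comparison of levels. The difference of miR-132-3p minus miR-212-3p, the arms with the same seed, was -0.65, -0.39 and -0.81 in the control group, compared with -0.11, -0.79 and -0.23 in the TGF-β group. The groups overlapped, and the change of 0.24 gave p = 0.3 in the exact permutation test (2-sided). With 1 array left out it was 0.11 (without TGF-β replicate 1) to 0.44 (without TGF-β replicate 2). For the arms of MIR132, miR-132-3p minus miR-132-5p was -0.46 ± 0.10 (SD, n = 3) without TGF-β and -0.62 ± 0.37 (SD, n = 3) with TGF-β (exact permutation test, 2-sided p = 0.5), and its change of -0.15 was -0.04 without TGF-β replicate 1 and -0.36 without TGF-β replicate 3. After Benjamini-Hochberg adjustment over these 2 pairs, the exact permutation p was 0.5 for both, in a design that cannot go below 0.1. Pairs with miR-212-5p were not tested, because it had values at the floor.

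Over the 6 arrays, the levels of miR-132-3p and miR-212-3p had a Pearson correlation of 0.01, and those of miR-132-3p and miR-132-5p one of 0.03. These are descriptions over arrays that share their normalization. The tested miRNAs with the pattern most like miR-132-3p were miR-6842-5p (r = 0.979), miR-4531 (0.931) and miR-6746-5p (0.921). For miR-132-5p they were miR-193a-3p (r = 0.958), miR-105-5p (0.939) and miR-485-5p (0.935). For miR-212-3p they were miR-4723-5p (r = 0.990), miR-3940-3p (0.976) and miR-4664-5p (0.975), with log2 fold changes of -0.18, -0.39 and -0.18, whose sign follows from the choice by likeness to miR-212-3p, and which did not pass the test (adjusted p of 0.277, 0.480 and 0.425 from limma). None of these sets held another arm of the locus. Each set is the 3 highest correlations among all tested miRNAs over only 6 arrays, so no conclusion is drawn from this.

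Within 1 Mb of MIR132, RefSeq lists 3 other miRNA genes, and their 5 mature miRNAs were on the array. miR-22-3p, a widely expressed miRNA whose gene MIR22 lies 336 kb from MIR132, had normalized levels of 8.84, 8.72 and 8.56 (log2) in the control group, compared with 8.60, 8.52 and 8.28 in the TGF-β group. The groups overlapped, and the log2 fold change of -0.24 (standard error 0.10) did not pass the test (adjusted p = 0.278 from limma). It was -0.16 with median scaling, -0.055 in the deposited values and -0.018 with the local background. Its partner arm miR-22-5p had a log2 fold change of -0.05, and both arms of MIR6776, 643 kb away, had -0.06 (3p) and 0.10 (5p). The adjusted p from limma of these arms was 0.904 to 0.919. miR-1253, 698 kb away, was detected on no array. Of the 4 tested neighbours, limma called 0, compared with 3.98% of all tested miRNAs, and 1, miR-22-3p, had an unadjusted p under 0.05, compared with 13.7% of all.

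**Figure D3:**
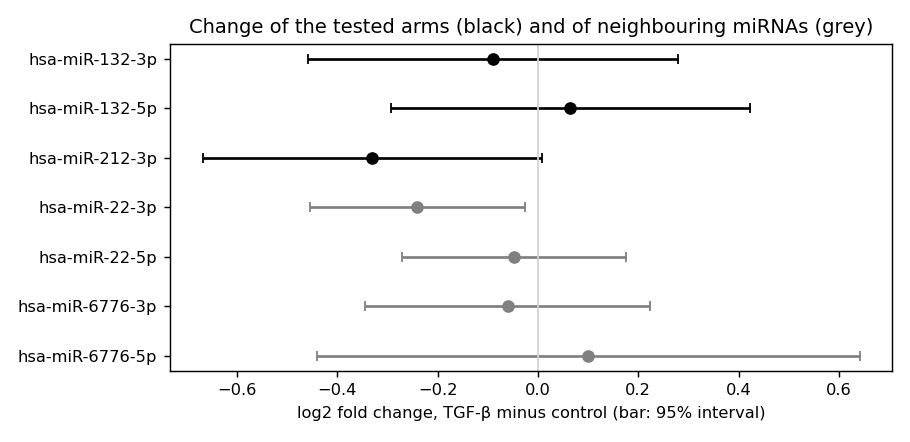
Log2 fold change of TGF-β minus control (horizontal axis, points) with its 95% interval from limma (bars) for the 3 tested arms of miR-132 and miR-212 (black) and for the 4 tested miRNAs of neighbouring genes on chromosome 17 (grey), each from 3 control and 3 TGF-β arrays. The interval of miR-212-3p reaches from -0.67 to 0.01 and those of both arms of miR-132 hold 0 well inside.

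Other miRNAs were described on the same arrays as a background. Among 14 miRNAs often reported to increase with TGF-β, which were all tested, 3 were called higher and 1 lower by limma, compared with 2.61% and 1.37% of all tested miRNAs, with a median log2 fold change of 0.07 over the 13 detected on every array, compared with -0.02 for all such miRNAs. miR-181a-5p and miR-181b-5p, 2 members of a family implicated in EMT, rose by 1.19 and 1.28 on the log2 scale (adjusted p = 5.63e-06 and 5.84e-06 from limma), and miR-23a-3p rose by 0.29 (adjusted p = 0.00478 from limma). miR-10b-5p fell by 0.39 (adjusted p = 0.00251 from limma). With the local background, none of the 14 was called, but neither was any of the 1457 tested miRNAs, so this says nothing particular of the list. The groups of these 4 overlapped in that setting. Their log2 fold changes were 0.56 for miR-181a-5p, 0.087 for miR-181b-5p, 0.37 for miR-23a-3p and 0.26, the opposite sign, for miR-10b-5p. The groups of miR-10b-5p also overlapped in the deposited values (-0.22), and those of miR-10b-5p (-0.35) and miR-23a-3p (0.29) without normalization between arrays.

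Of 12 brain-enriched miRNAs, a group to which miR-132 is often counted, 8 were tested and 6 were detected on every array. Limma called 0 of the 8, compared with 3.98% of all tested miRNAs, and the median log2 fold change of the 6 detected throughout was -0.0020, compared with -0.02 for all miRNAs detected throughout. At an unadjusted p under 0.05 there were 2 of the 8 in limma, compared with 13.7% of all, and 2 in the methods' t-test, compared with 13.4%. The neuronal miRNA miR-124-3p was detected on 2 arrays and at no more than 3.27 SDs above the blank mean, and miR-124-5p on none. Among those 6, the highest and lowest log2 fold changes were those of miR-218-5p (0.60, adjusted p = 0.0919 from limma) and miR-128-3p (-0.17, adjusted p = 0.282 from limma). miR-153-3p had a higher fitted value, but entered the test through the TGF-β group alone. Its normalized level was 0 (the floor), 0.69 and 1.80 in the control group, compared with 1.56, 1.94 and 1.52 in the TGF-β group (adjusted p = 0.418 from limma).

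Markers of other cells were described in the same way. Of 5 pancreatic acinar and islet miRNAs, the acinar miR-216b-5p and miR-217 were detected on no array, miR-216a-5p on 2 and the islet miRNA miR-375 on 1. miR-7-5p, which is high in islet cells but not limited to them, was detected on all 6 arrays at 409 to 894 blank SDs, with a log2 fold change of 0.14 (adjusted p = 0.667 from limma). Of 5 blood cell miRNAs, miR-142-3p was detected on 6 arrays, the red cell miRNA miR-451a on 5, miR-223-3p on 4, miR-144-3p on 3 and miR-142-5p on 2, and their strongest spot was 10.1 SDs above the blank mean. Of these, 3 were tested, miR-451a and miR-223-3p through the TGF-β group alone, which favours a higher value there, so no direction is read from them. miR-142-3p, the only one detected on every array, had a log2 fold change of 0.02 (adjusted p = 0.998 from limma). Limma called 0 of the 3, compared with 3.98% of all. None had an unadjusted p under 0.05 in limma, compared with 13.7% of all, or in the methods' t-test, compared with 13.4%. The part of blood cell RNA in the values of the arms was not tested.

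**Figure D4:**
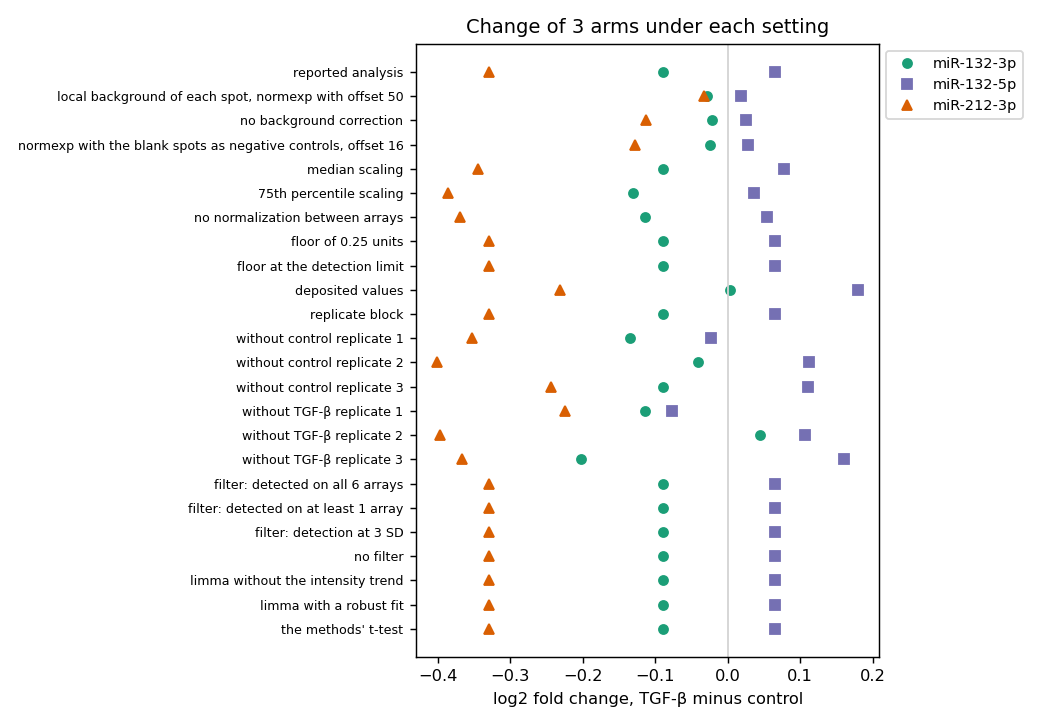
Log2 fold change of TGF-β minus control (horizontal axis) for miR-132-3p (circles), miR-132-5p (squares) and miR-212-3p (triangles) under the reported analysis and each alternative setting (rows). miR-212-3p lies from -0.40 to -0.03, with the same value as in the reported analysis in 10 rows whose setting cannot change it, whereas both arms of miR-132 lie on either side of 0.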

How the data were processed

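Total RNA of Panc-1 cells was labelled with Cy5 and hybridised to 6 miRNA arrays. The authors deposited, for each array, the scanner's median intensity of 3200 spots and of the local background of each spot, on a linear scale and not normalized. They also deposited a table of processed signal values, for which no method is given in the sources used here. Setting it against the scanner files showed that the blank mean was subtracted, the median of the detected miRNAs was set to 25 and values were rounded (largest difference 0.5, with the same miRNAs missing). It is on a linear scale and not centred per miRNA, and its column medians were all 25.

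Here the trimmed mean of the blank spots was subtracted, values under 1 unit were set to 1, and flagged spots (3) were left out. The values were then quantile normalized over the miRNA probes on the linear scale, and log2 was taken afterwards. Groups were compared with lmFit and eBayes (intensity trend) of limma 3.58.1 in R 4.3.3, with Benjamini-Hochberg adjustment. The local background, which holds 52.6% to 103% of the signal at the spots of the 4 arms, was kept as an alternative (normexp, offset 50). Sequences and positions came from RefSeq tables (GRCh38.p14), in which all 4 arms matched by name. Figures used matplotlib 3.10.9 in Python 3.11.15. The script was tested on simulated data. The members, lists and settings were chosen with earlier results of these data known. miRNAs were named by rule: the arms, those sharing a seed, those within 1 Mb, list members past the threshold or the largest rise and fall, and the 3 most alike in pattern. miR-124, miR-218-5p and the blood cell and pancreatic miRNAs were named after their values were seen. Planned comparisons with miR-212-5p were left out, since it had values at the floor.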

Additional observations from a re-analysis of the deposited data

How the results depend on the processing

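None of the 3 tested arms was called in any alternative, and of the 23 alternatives for miR-212-3p, 10 could not change its fold change and 2 kept the order of its values. It was below 0 in the other 11. The log2 fold change was -0.03 with the local background, -0.11 without background correction and -0.13 with normexp on the blank spots. The reason for these smaller changes was not tested. With 1 array left out, the log2 fold change was -0.40 to -0.22 for miR-212-3p, -0.20 to 0.045 for miR-132-3p and -0.077 to 0.16 for miR-132-5p. miR-132-3p was 0.0036 in the deposited values. For miR-212-5p, with values at the floor, fold changes and comparisons with other arms are given in no setting. The change of miR-132-3p minus that of miR-212-3p was 0.24, compared with 0.0038 to 0.10 with the other backgrounds and 0.11 to 0.44 with 1 array left out, and that of miR-132-3p minus miR-132-5p was -0.15, compared with -0.053 to -0.046 with the other backgrounds and -0.36 to -0.036 with 1 array left out. The count of called miRNAs was 58, compared with 0 with the local background, 35 without normalization between arrays, 31 in the deposited values, 20 with no filter, 31 without the intensity trend, 17 with the methods' t-test and 26 to 51 with 1 array left out (26 without TGF-β replicate 2, 33 without TGF-β replicate 3 and 35 without control replicate 2). The called members of the TGF-β list were 4, and 0, 2 and 2 with the local background, without the trend and with the methods' t-test (3 to 5 with 1 array left out). With the replicate number as a block, the adjusted p of miR-212-3p was 0.348 and no call of a tested arm changed. Deviations of same-numbered arrays correlated at 0.13, 0.11 and -0.03, so the numbers were not taken as pairs. The deposited ratio of miR-212-3p with 1 array left out (chosen once the values were known) was 0.750 to 0.971. Signal over background limits all values of miR-212-5p.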
